A study of Mus musculus with 36 samples.

Results

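The 18 livers of mice given carbon tetrachloride (CCl4) were compared with each other, animal by animal, to see which genes vary with the amount of scar matrix. They are the libraries titled as CCl4-treated wild type (WT, 9 libraries) or CCl4-treated dermatopontin knockout (KO, 9 libraries), 18 of the 36 libraries of the series, and they were chosen by these titles alone. The other 18 libraries are livers of WT (8) and KO (10) mice given olive oil and serve as a reference level. The mice were female, on a C57BL/6 background, and 10 to 12 weeks old. KO mice lack dermatopontin (Dpt), a matrix protein that attaches to decorin and to collagen fibrils, and the WT mice were their littermates. CCl4 was given subcutaneously on 3 days of each week for 8 weeks at 0.1 ml/kg, as a 2% solution in week 1 that was raised stepwise to 8%, and livers were taken 24 hours after the last dose. RNA of whole liver was hybridised to Affymetrix MoGene-2_0-st arrays, and the values are log2 signals. The number of arrays limits the precision. The labels do not say whether animals were dosed or processed in separate batches, so p-values measure the spread between these libraries.

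CCl4 is turned by cytochrome P450 enzymes of hepatocytes into a toxic radical, and repeated dosing leaves scars that run between the central veins. Hepatic stellate cells, which store vitamin A in a healthy liver, become myofibroblasts and lay down fibrillar collagen, of which type I, built from Col1a1 and Col1a2 chains, is the main component. Macrophages drawn from the blood gather along these scars, while hepatocytes near the central vein lose their enzymes. Col1a1 RNA was used as the measure of scarring in each animal, and the scar itself was not measured in the data used here.

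Several libraries stood apart before any test. Albumin (Alb), the main secreted protein of hepatocytes, lay between 11.37 and 12.54 in all 18 libraries. Dpt, read as a check of the labels, lay between 7.48 and 10.12 in 8 of the 9 WT libraries and between 3.00 and 3.86 in the 9 KO libraries. The library labelled WT_CCl4 1 read 3.18, within the KO range and against its label. Its values fell within the range of 17 oil libraries for 88.8% of all genes, against 51.2% to 78.9% in the other 17 CCl4 libraries. The oil library labelled KO_control 10 was left out of that range, because it read 7.40 for Dpt and 9.26 for Col1a1. Both libraries keep the names of their labels here, whether the labels were exchanged was not tested, and each WT result that rests on WT_CCl4 1 is tied to that label. Markers of skeletal muscle, pancreas or fat exceeded the median array of the whole series by over 1 log2 in 6 CCl4 libraries. Their mean reached 10.20 for 11 muscle genes in WT_CCl4 3 and 8.07 in WT_CCl4 8, 11.54 for 11 pancreas genes in WT_CCl4 4 and 7.08 in WT_CCl4 5, and 8.97 for 8 fat genes in KO_CCl4 5. WT_CCl4 9 carried all 3 kinds at 5.20 to 6.07. WT_CCl4 4 did so too, with 5.43 for muscle and 5.34 for fat, and WT_CCl4 3 read 7.15 for fat. In the 12 other CCl4 libraries the means stayed between 3.56 and 3.80 for muscle, 3.56 and 4.15 for pancreas, and 3.97 and 4.91 for fat. A mean over 14 genes of periportal hepatocytes was low in WT_CCl4 3 (5.91) and KO_CCl4 5 (5.81), against 7.91 to 9.08 in the rest. Results are therefore given with all 18 libraries and again without WT_CCl4 1, without the 6 libraries that carry other tissues, and without WT_CCl4 1, WT_CCl4 3 and KO_CCl4 5 together (15 libraries). The last of these settings was chosen after seeing the data.

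**Figure D1:**
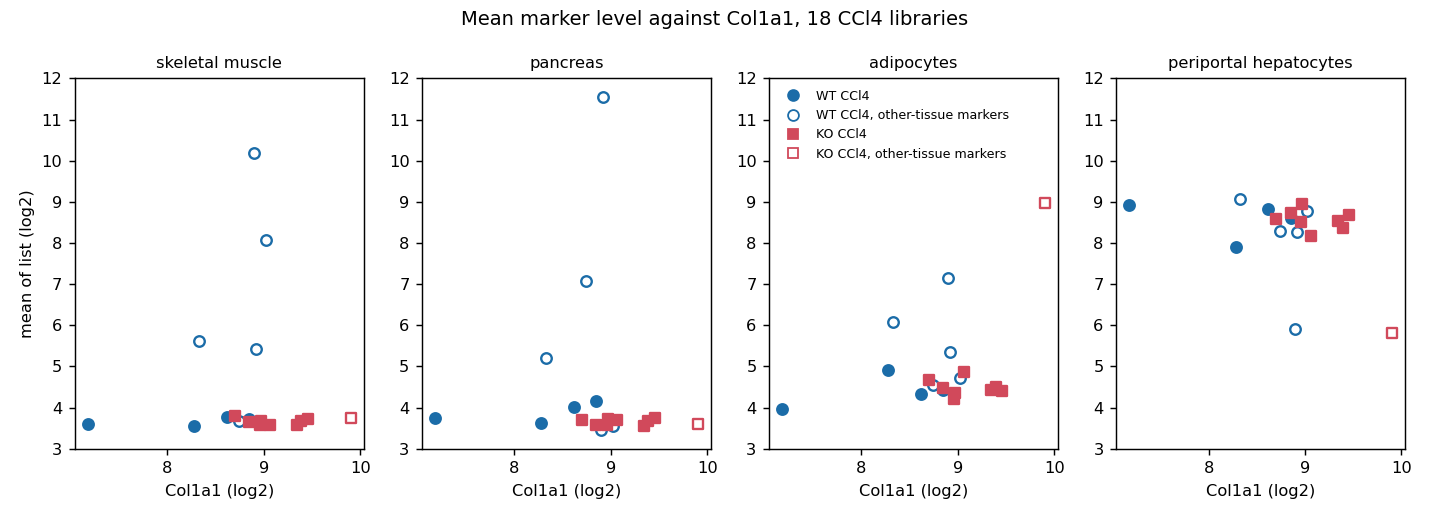
Mean log2 level of the marker genes of skeletal muscle, pancreas, adipocytes and periportal hepatocytes (y axes) against Col1a1 (x axis, log2) in the 18 CCl4 libraries, each point a library, with open symbols for the 6 libraries that carry other-tissue markers. WT_CCl4 3 reaches 10.20 for muscle, WT_CCl4 4 reaches 11.54 for pancreas, and KO_CCl4 5, which has the highest Col1a1, reaches 8.97 for fat and drops to 5.81 for periportal genes.

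Col1a1 varied more among the CCl4 livers than most genes did. In WT it ran from 7.18 in WT_CCl4 1 through a median of 8.74 to 9.02 in WT_CCl4 8, with an SD of 0.57 (n = 9), wider than that of 89.8% of genes. In KO it ran from 8.70 in KO_CCl4 9 through a median of 9.06 to 9.90 in KO_CCl4 5, with an SD of 0.37 (n = 9), wider than that of 81.9% of genes. All 18 CCl4 libraries lay above the 17 oil libraries, which read 4.78 to 5.88. The lowest WT library, WT_CCl4 1, was thus separated from the rest, the next reading 8.28. The highest KO library, KO_CCl4 5, was less set apart, the next reading 9.46. It also read 8.97 for the fat mean and 7.09 for the mesothelium mean. Its mean of secreted liver proteins was 7.69, against 10.46 to 10.67 in the other KO libraries. The part of tissue other than liver in its Col1a1 and other matrix values was not tested. Without WT_CCl4 1 and KO_CCl4 5, the WT range narrowed to 8.28 to 9.02 and the KO range to 8.70 to 9.46, with SDs of 0.28 and 0.27 (n = 8 each). The probe sets of Col1a1 mostly told the same order, since 25 of its 26 probe sets in WT and 24 in KO correlated at r above 0.5 with the mean of the others across 9 animals. The median signal of an array over all genes, which spanned 4.15 to 4.38 in WT and 4.21 to 4.30 in KO, also moved with Col1a1. Its Pearson r was 0.76 in WT (exact permutation p = 0.0344, Spearman rho 0.85 with exact p = 0.00607) and 0.89 in KO (exact permutation p = 9.6e-04, rho 0.88 with exact p = 0.00308). Without the 2 libraries farthest from the median Col1a1 these r were 0.50 and 0.76. Counts with each array centred on its own median are given beside the main ones for this reason.

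**Figure D2:**
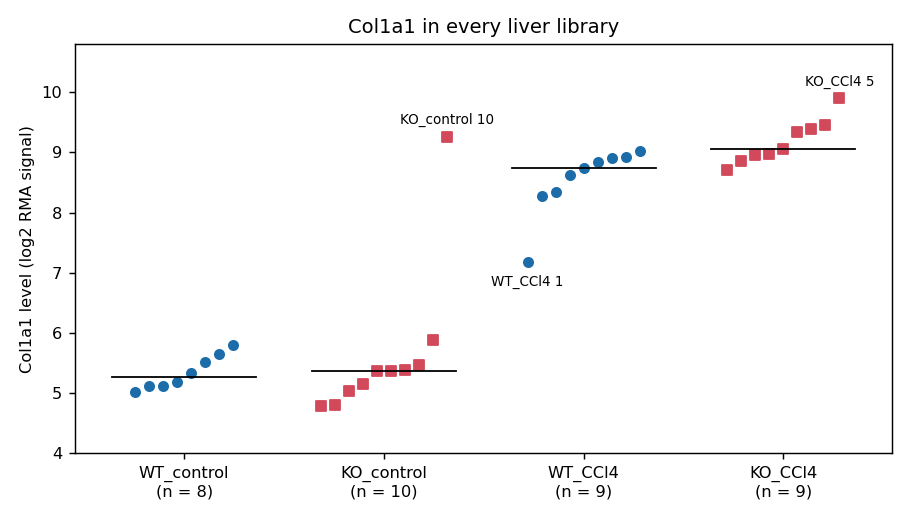
Col1a1 level (y axis, log2 RMA signal, mean of 26 probe sets) in every library of the 4 groups, each point a library and each bar the group median. The CCl4 livers span 7.18 to 9.90, WT_CCl4 1 lies below and KO_CCl4 5 above the rest of its group, and KO_control 10 reads 9.26 among the oil livers.

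A line was then fitted for each of 23140 genes against Col1a1 across the 18 libraries, with a mean for each genotype and a slope shared by both. A slope is the log2 change of a gene per 1 log2 of Col1a1, and a gene is said to rise or fall with Col1a1 when the limma p, adjusted by Benjamini-Hochberg over all these genes, is under 0.05. By this measure 293 genes rose, 1.27% of those tested, and 128 fell, 0.553%. Rises numbered 4 of 6 fibrillar collagens, 9 of 18 genes that fold or crosslink collagen, 13 of 28 matrix glycoproteins and elastic fibre genes, and 7 of 13 genes of lipid-handling scar macrophages. The 10 largest falls were mostly of enzymes, transporters and secreted proteins of hepatocytes. Whether more of a gene's RNA in a liver reflects more cells of a type or more RNA per cell cannot be told apart in whole tissue. With arrays centred on their medians 119 genes rose and 154 fell, so the balance of rises and falls depends on the scaling.

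These calls rested in large part on the libraries at the ends. WT_CCl4 1 was the lowest WT library in 289 of the 293 rises and the highest in 128 of the 128 falls, against 14.7% and 15.9% of all genes. KO_CCl4 5 was the highest KO library in 260 of the rises and the lowest in 104 of the falls, against 25.1% and 24.6% of all genes. The level in WT_CCl4 1 was within the range of the oil libraries for 68.3% of the rises and 80.5% of the falls. For all genes its share was 88.8%. The other CCl4 libraries gave 2.73% to 22.2% for the rises and 16.4% to 67.2% for the falls. Their shares of all genes were 51.2% to 78.9%. Without WT_CCl4 1 the counts dropped to 29 rises (0.125%) and 9 falls (0.0389%), and 21 of these 38 genes were among the 421 called with all libraries. Without KO_CCl4 5 they were 106 (0.458%) and 51 (0.22%). Without the 6 libraries that carry other tissues, 87 genes rose (0.376%) and 34 fell (0.147%), and 89 of these 121 were among the 421. With 15 libraries 5 genes rose and 1 fell (0.0216% and 0.00432%), and Col1a2 and Col3a1 were among them. With both WT_CCl4 1 and the 6 libraries that carry other tissues left out, limma called no gene of 23140, with 1637 at an unadjusted p under 0.05. The count ran from 38 called genes without WT_CCl4 1 to 736 without WT_CCl4 8.

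**Figure D3:**
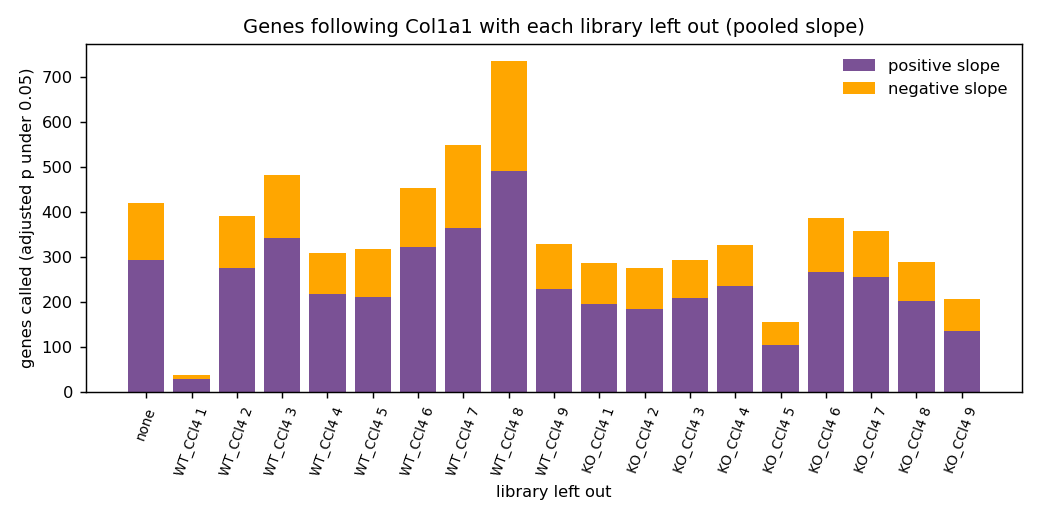
Number of genes called (y axis, adjusted p under 0.05, positive and negative slopes stacked) with all 18 libraries and with each library left out in turn (x axis). The bar drops from 421 to 38 without WT_CCl4 1, falls to 157 without KO_CCl4 5 and reaches 736 without WT_CCl4 8.

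Within each genotype fewer genes were called. In WT 17 genes rose and 17 fell (0.0735% each), and in KO 218 rose (0.942%) and 66 fell (0.285%). All 34 WT calls were among the 421 of the shared slope, against 86 of the 284 KO calls (30.3%). Fibrillar collagens gave 3 rises in WT and 4 in KO, and folding and crosslinking genes 3 and 6, while the falls in WT included Cyp3a16, Cyp3a44 and A1bg. Genes called in both genotypes numbered 11, namely Col1a2, Col3a1, Col5a2, Serpinh1, Sparc, Postn, Lox, Fstl1, Ccdc80, App and Myof, all of them with a positive slope. They are collagens and proteins that bind, fold or crosslink them, together with App, the amyloid precursor protein, and Myof, a membrane repair protein. Sparc and Myof were named after their values were seen. Without WT_CCl4 1 no gene was called in WT (limma, 1837 at an unadjusted p under 0.05). Without the libraries that carry other tissues no gene was called in KO (1763 at an unadjusted p under 0.05), which leaves out KO_CCl4 5 alone from that genotype. No gene's slope differed between KO and WT by limma, with 2341 genes at an unadjusted p under 0.05.

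The exact permutation test of Pearson r, which ranks the 362880 orders of 9 animals, called fewer genes than limma. In WT it called none after adjustment over 23140 genes (1472 at an unadjusted p under 0.05). In KO it called 5, with Fbn1, Ppic, Chd4 and 6820431F20Rik rising and Cyp2c39 falling. Over the 8 KO animals without KO_CCl4 5 it called none (1894 at an unadjusted p under 0.05). Fbn1 encodes fibrillin of elastic fibres, and Ppic a cyclophilin that catalyses protein folding. Apart from Fbn1 these were named after their values were seen. By Spearman's rho neither genotype had a call (1508 in WT and 2535 in KO at an unadjusted p under 0.05).

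The genes whose pattern was most like Col1a1 in both genotypes, by the lower of the r in 9 WT and the r in 9 KO animals, were in order Col1a2, Serpinh1, Fstl1, Ccdc80, Col5a1, App, Loxl2, Col5a2, Col3a1 and Col6a3. Of these, 5 encode collagen chains, Serpinh1 encodes the collagen chaperone HSP47, and Loxl2 is a lysyl oxidase that crosslinks collagen. Fstl1 and Ccdc80 are secreted glycoproteins of fibroblasts. With arrays centred on their medians the slopes of Col1a2 and Serpinh1 were 1.00 and 0.70, against 1.01 and 0.72 without centring. The RefSeq promoter tables on mouse assembly GRCm38.p6 held the start of 7 of these 10 genes. The 250 bases before the start are shown for 4 of them that lead the list or carry the collagen result, to let their upstream sequence be read beside their shared pattern. They are Col1a2 (chr6:4505368-4505617, plus strand), Serpinh1 (chr7:99353240-99353489, minus strand), Fstl1 (chr16:37776805-37777054, plus strand) and Col3a1 (chr1:45311288-45311537, plus strand). Each is printed 5′ to 3′ on the strand of its gene, and capitals mark matches, on either strand, to any of 4 motifs, none of which contains another. These are the CCAAT box, the GC box core GGGCGG, the TATA box written as TATAAA, and the AP-1 core TGANTCA. A match is to the letters alone, at any distance from the start, and whether it acts as such an element was not tested.
Col1a2: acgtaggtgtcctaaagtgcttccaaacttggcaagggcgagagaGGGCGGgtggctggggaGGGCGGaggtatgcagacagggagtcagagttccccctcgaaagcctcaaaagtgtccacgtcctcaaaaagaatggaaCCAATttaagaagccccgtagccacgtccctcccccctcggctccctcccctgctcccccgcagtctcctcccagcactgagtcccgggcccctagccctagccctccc
Serpinh1: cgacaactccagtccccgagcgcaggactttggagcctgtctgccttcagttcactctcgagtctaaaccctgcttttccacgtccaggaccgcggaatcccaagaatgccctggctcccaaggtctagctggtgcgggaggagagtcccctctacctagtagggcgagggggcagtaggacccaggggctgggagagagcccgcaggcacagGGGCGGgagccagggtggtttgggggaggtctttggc
Fstl1: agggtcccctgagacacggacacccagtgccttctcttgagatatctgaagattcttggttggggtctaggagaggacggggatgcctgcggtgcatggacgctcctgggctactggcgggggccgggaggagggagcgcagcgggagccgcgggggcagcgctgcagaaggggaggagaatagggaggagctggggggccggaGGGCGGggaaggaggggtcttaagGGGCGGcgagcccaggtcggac
Col3a1: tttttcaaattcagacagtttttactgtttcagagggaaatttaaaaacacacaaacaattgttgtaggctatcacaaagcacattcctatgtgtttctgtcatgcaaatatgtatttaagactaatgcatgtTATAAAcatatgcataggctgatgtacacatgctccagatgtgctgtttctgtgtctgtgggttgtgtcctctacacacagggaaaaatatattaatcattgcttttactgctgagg
The motif GGGCGG was found in 5 of the 7 promoters (Col1a2, Serpinh1, Fstl1, Col5a1 and App) and in 32.7% of all 32851 promoters of the table. CCAAT was found in Col1a2 alone (33.8% of all promoters) and TATAAA in Col3a1 alone (12.4%). The motif TGANTCA was in none of the 7 and in 6.75% of all.

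Col1a2, which pairs with Col1a1 in type I collagen, followed it most closely. It ran from 6.38 through a median of 7.89 to 8.49 in WT and from 7.96 through 8.14 to 9.14 in KO. WT_CCl4 1 was the lowest and KO_CCl4 5 the highest of all 18 libraries, as for Col1a1. The slope was 1.01 ± 0.08 (SE, limma adjusted p = 5.17e-06), so a change of Col1a1 came with a change of about the same size in Col1a2. Pearson r was 0.97 in WT and 0.95 in KO over 9 animals each (exact permutation p = 1.9e-04 and 5.8e-04, adjusted 0.305 and 0.0747), with rho 0.90 and 0.87. Without WT_CCl4 1 and KO_CCl4 5 r was 0.88 and 0.92 over 8 animals each. The slope over 15 libraries was 0.82 ± 0.13 (limma adjusted p = 0.046). Serpinh1 ran from 5.90 through 7.03 to 7.28 in WT and from 6.98 through 7.41 to 7.84 in KO. Its slope was 0.72 ± 0.08 (limma adjusted p = 0.000272), and r over 8 animals was 0.83 in WT and 0.93 in KO. Its rho over the same 8 animals was 0.57 in WT (exact permutation p = 0.151) and 0.86 in KO (exact permutation p = 0.0107), and over 15 libraries its adjusted p by limma was 0.131.

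**Figure D4:**
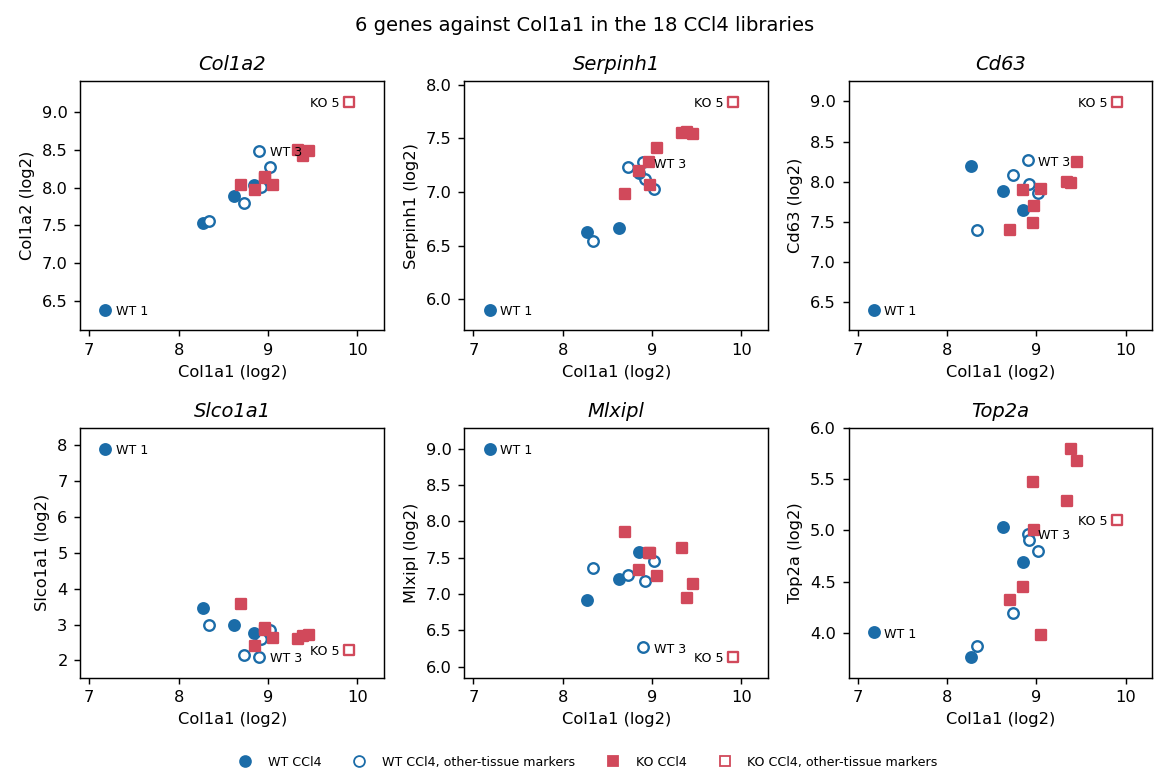
Levels of Col1a2, Serpinh1, Cd63, Slco1a1, Mlxipl and Top2a (y axes, log2) against Col1a1 (x axes, log2), each point 1 of the 18 CCl4 libraries, open where other-tissue markers are high. Col1a2 climbs from 6.38 in WT_CCl4 1 to 9.14 in KO_CCl4 5 with the other libraries in between along a line, while Slco1a1 reads 7.90 in WT_CCl4 1 and 2.10 to 3.58 in the other 17.

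Of 6 measured fibrillar collagens besides Col1a1, 4 rose (Col1a2, Col3a1, Col5a1 and Col5a2) and none fell, with a median slope of 0.69 against -0.01 over all genes. Col3a1, the type III chain of loose scar matrix, ran from 6.78 through 8.47 to 9.54 in WT and from 8.25 through 8.66 to 10.31 in KO. Its highest WT library was WT_CCl4 3, which carries muscle and fat markers, and its highest KO library was KO_CCl4 5, which carries fat markers. Its slope was 1.28 ± 0.15 (limma adjusted p = 0.000412) and 1.00 ± 0.16 over 15 libraries (limma adjusted p = 0.0465). Col5a1 and Col5a2, which encode type V chains that seed fibrils, had slopes of 0.45 ± 0.07 and 0.94 ± 0.11 (limma adjusted p = 0.00472 and 0.000468). Without WT_CCl4 1 the list kept 3 called members, and over the 15 libraries Col1a2 and Col3a1.

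Among the 11 other collagens 4 rose and none fell. Col6a3 and Col6a1 of beaded filaments had slopes of 0.79 ± 0.11 and 1.11 ± 0.22 (limma adjusted p = 0.0023 and 0.0154). Col4a1, of basement membranes, ran from 5.59 through 6.52 to 6.98 in WT and from 6.25 through 6.91 to 7.78 in KO. Its order followed Col1a1 closely in KO (rho 0.97, exact permutation p = 1.7e-04) but not in WT (rho 0.23, exact permutation p = 0.552), where its r without WT_CCl4 1 was -0.02. Whether the slope differed between genotypes was tested and not called. No member was called without WT_CCl4 1.

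Matrix glycoproteins and proteins of elastic fibres gave 13 rises and no fall among 28 measured, with a median slope of 0.72. Periostin (Postn), a matrix protein of activated fibroblasts, ran from 5.82 through 7.18 to 7.92 in WT and from 6.63 through 6.97 to 8.92 in KO. Its slope was 1.19 ± 0.17 (limma adjusted p = 0.00249), and r in WT was 0.95 with all 9 animals and 0.87 without WT_CCl4 1. In KO its r dropped from 0.83 to 0.62 without KO_CCl4 5, whose 8.92 stood above 6.63 to 7.35 in the other KO animals. Fibrillin (Fbn1) ran from 5.10 through 6.47 to 7.76 in WT and from 6.31 through 6.66 to 8.15 in KO. It had the reverse pattern, with r of 0.95 in 8 KO animals and 0.55 in 8 WT animals, and a slope of 1.08 ± 0.18 (limma adjusted p = 0.00627). Lama2 and Lamb1, laminin chains of basement membranes, had slopes of 0.88 ± 0.19 and 0.83 ± 0.20 (limma adjusted p = 0.0255 and 0.045). Centring of the arrays left 3 called members of 28, and leaving out WT_CCl4 1 left 3 as well.

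Enzymes and helpers of collagen folding and crosslinking rose in 9 of 18 cases, with a median slope of 0.53. Lox, a lysyl oxidase that starts the crosslinks, ran from 4.12 through 5.64 to 6.02 in WT and from 5.11 through 5.96 to 6.78 in KO. WT_CCl4 1 read well below the other WT animals, whose r was 0.39 over 8, while the KO animals without KO_CCl4 5 gave 0.90 over 8. Its slope was 1.02 ± 0.14 (limma adjusted p = 0.00169). Loxl1, Adamts2 (which trims the ends of procollagen) and Plod2 (which hydroxylates its lysines) had slopes of 1.04 ± 0.20, 0.79 ± 0.16 and 1.01 ± 0.21 (limma adjusted p = 0.0126, 0.0193 and 0.0202). Plod2 depended on the end libraries, with a slope of 0.05 over 15 libraries.

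Small leucine-rich proteoglycans, the family that includes the Dpt partner decorin, gave 2 rises among 9 measured, lumican (Lum) and biglycan (Bgn). Lum ran from 4.93 through 6.28 to 6.97 in WT and from 6.45 through 6.63 to 8.35 in KO, with WT_CCl4 1 lowest and KO_CCl4 5 highest by more than 1 log2. Its slope was 1.00 ± 0.17 (limma adjusted p = 0.00647) and 0.34 over 15 libraries. Bgn had a slope of 0.43 ± 0.10 (limma adjusted p = 0.039).

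Proteases of the matrix and their inhibitors gave 6 rises and no fall among 18 measured. Mmp2, a gelatinase made by stellate cells, had a slope of 1.48 ± 0.24 (limma adjusted p = 0.00492), among the 10 largest rises. It ran from 5.46 through 7.11 to 8.22 in WT and from 6.74 through 7.22 to 9.77 in KO, and the next KO animal below KO_CCl4 5 read 7.80. Without KO_CCl4 5 its r in KO was still 0.87, and without WT_CCl4 1 the gene kept its call (limma adjusted p = 0.0375 over 17 libraries). Timp2, an inhibitor of Mmp2, Adam12, a fibroblast metalloprotease, and Mmp12, the macrophage elastase, had slopes of 1.11 ± 0.23, 0.96 ± 0.18 and 0.91 ± 0.18 (limma adjusted p = 0.0171, 0.0125 and 0.0163). Mmp12 is also on the list of scar macrophages.

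Genes of TGF-beta and PDGF signalling, the main pathways that activate stellate cells, gave 4 rises among 21 measured, with a median slope of 0.39. The ligands Tgfb3, Tgfb2 and Tgfb1 had slopes of 1.08 ± 0.21, 0.68 ± 0.15 and 0.62 ± 0.15 (limma adjusted p = 0.0163, 0.0289 and 0.039). Tgfb1 ran from 5.65 through 6.23 to 7.05 in WT and from 6.03 through 6.71 to 7.58 in KO. In 8 KO animals it kept an r of 0.82, and in 8 WT animals the r was 0.29. The receptor Pdgfrb, which marks stellate cells and pericytes, ran from 6.29 through 7.41 to 7.89 in WT and from 7.25 through 7.79 to 7.93 in KO, with a slope of 0.61 ± 0.13 (limma adjusted p = 0.0246). No member of this list was called without WT_CCl4 1 or without the libraries that carry other tissues.

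Of 13 markers of quiescent stellate cells, which store retinoids, only cytoglobin (Cygb) rose, and the median slope of the list was -0.29, or -0.02 over 15 libraries and 0.08 without the libraries that carry other tissues. Cygb, an oxygen-binding globin of stellate cells, ran from 6.37 through 7.40 to 7.88 in WT and from 7.16 through 7.49 to 8.38 in KO. Its slope was 0.69 ± 0.12 (limma adjusted p = 0.0083), and its rho in 9 WT animals was 0.28 (exact permutation p = 0.463). Myofibroblast markers gave 5 rises among 16, and all 16 had a positive slope, with a median of 0.95. Over 15 libraries the median was 0.42, with 14 of 16 above 0, and without the libraries that carry other tissues 0.51, with 12 of 16. Vimentin (Vim), an intermediate filament of mesenchymal cells, ran from 7.42 through 8.62 to 10.13 in WT and from 8.42 through 8.81 to 10.22 in KO. The highest WT and KO animals were WT_CCl4 3 and KO_CCl4 5, the 2 libraries with few hepatocyte transcripts. Its slope was 1.09 ± 0.19 (limma adjusted p = 0.00815) and 0.83 over 15 libraries. S100a6 and Lgals1, small proteins of activated mesenchyme, had slopes of 1.26 ± 0.31 and 1.07 ± 0.25 (limma adjusted p = 0.0441 and 0.036).

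Some macrophage genes rose with Col1a1 as well. Of 13 genes of macrophages that handle lipid along scars 7 rose and none fell, with a median slope of 0.68. Over 15 libraries the median was 0.31, and 2 of the 13 had a positive slope at an unadjusted p under 0.05, against 4.91% of all genes. Cd63, a membrane protein of lysosomes, ran from 6.40 through 7.88 to 8.27 in WT and from 7.40 through 7.91 to 9.00 in KO, with a slope of 0.92 ± 0.14 (limma adjusted p = 0.00429). The WT range was set by WT_CCl4 1, since the other 8 lay between 7.40 and 8.27 and their r was 0.19, while 8 KO animals gave an r of 0.83. Gpnmb, a glycoprotein of lipid-laden macrophages, ran from 6.64 through 8.44 to 9.22 in WT and from 7.96 through 8.53 to 10.74 in KO. Its slope was 1.25 ± 0.22 (limma adjusted p = 0.0094) and 0.40 over 15 libraries. Lipoprotein lipase (Lpl) had a slope of 1.43 ± 0.22 (limma adjusted p = 0.00429) and read 9.34 in WT_CCl4 3 and 9.95 in KO_CCl4 5, the libraries with the highest fat markers, against 5.74 to 8.44 in the rest. Fat also expresses Lpl, and the part of fat in these values was not tested. Leaving out WT_CCl4 1 left no called gene of the 13, and leaving out the libraries that carry other tissues left 5.

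Of 20 genes of monocytes and macrophages 4 rose, and all 20 had a positive slope, with a median of 0.63. Cd68, a lysosomal marker of macrophages, ran from 7.84 through 8.98 to 9.92 in WT and from 8.91 through 9.70 to 10.91 in KO, with a slope of 0.89 ± 0.19 (limma adjusted p = 0.0258). Ms4a7, Clec7a (a receptor for fungal glucans) and Ccr2 (the chemokine receptor of blood monocytes) had slopes of 1.12 ± 0.22, 0.70 ± 0.15 and 0.60 ± 0.11 (limma adjusted p = 0.0163, 0.021 and 0.0125). Over 15 libraries 9 of the 20 had a positive slope at an unadjusted p under 0.05, against 4.91% of all genes, and none was called. The 10 markers of Kupffer cells, the resident macrophages of the liver, had no call and a median slope of -0.48, which became 0.24 over 15 libraries and 0.04 without the libraries that carry other tissues. The 2 with the smallest adjusted p were Clec4f at -1.26 ± 0.47 and Timd4 at -0.68 ± 0.28 (limma adjusted p = 0.145 and 0.176).

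Among the 10 largest rises were several genes of the immune system. Il7r, the receptor for interleukin 7, had a slope of 1.58 ± 0.35 (limma adjusted p = 0.0289) and was the single call among 13 genes of T and NK cells. It ran from 2.82 through 4.48 to 6.87 in WT and from 4.05 through 4.61 to 7.07 in KO, again highest in WT_CCl4 3 and KO_CCl4 5. Ifi204, an interferon-induced DNA sensor, had the largest slope of all named rises apart from Dpt at 1.77 ± 0.32 (limma adjusted p = 0.0104). It ran from 1.77 through 3.49 to 5.59 in WT and from 2.45 through 4.02 to 5.86 in KO. Its lowest values lay in the low range of the array, where a signal may be background. Over 15 libraries its slope was 2.08 ± 0.45 (unadjusted limma p = 2.3e-04, adjusted 0.17), and its r was 0.92 in 8 KO animals. The other large rises were Anxa1, an annexin that limits inflammation, Myo5a, Lilr4b, Ifi211, Pcdh7 and Sparcl1, with slopes of 1.34 to 1.57. For Ifi211 the WT oil libraries already spread from 2.32 to 6.79, against 4.30 to 8.23 in the WT CCl4 libraries, where WT_CCl4 1 was the lowest. By the shared slope no gene was called among 16 chemokines, 12 neutrophil genes, 10 genes of B and plasma cells or 19 interferon-stimulated genes.

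The largest falls were mostly of enzymes, carriers and plasma proteins of hepatocytes. A1bg, a plasma glycoprotein, had the steepest slope at -3.25 ± 0.39 (limma adjusted p = 0.000468). It ran from 3.62 through 4.21 to 10.15 in WT and from 3.40 through 4.35 to 7.86 in KO, and the WT animal next below WT_CCl4 1 read 6.58. Both genotypes held an animal with low Col1a1 and high A1bg besides WT_CCl4 1, namely WT_CCl4 9 and KO_CCl4 9. WT_CCl4 7, whose Col1a1 of 8.28 lay below the 8.33 of WT_CCl4 9, read only 4.93 for A1bg. The r over 8 animals was -0.82 in WT and -0.69 in KO. The oil libraries spread widely for this gene, from 3.15 to 10.44 in WT. Cyp2c38, a cytochrome P450, ran from 2.52 through 5.54 to 8.99 in WT and from 1.96 through 4.27 to 6.24 in KO, with a slope of -2.94 ± 0.48 (limma adjusted p = 0.00624) and -3.28 ± 0.74 over 15 libraries (limma adjusted p = 0.227, not called). Its r was -0.56 in 8 WT (exact permutation p = 0.156) and -0.88 in 8 KO animals (exact permutation p = 0.00937, adjusted 0.553).

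Several other large falls were set mainly by WT_CCl4 1. Slco1a1, a transporter that takes bile acids and organic anions into hepatocytes, read 7.90 there and 2.10 to 3.58 in the other 17 CCl4 libraries, while oil libraries of WT read 7.70 to 9.73. Its slope was -2.22 ± 0.35 (limma adjusted p = 0.00467) and -0.75 over 15 libraries. Sult3a2, a sulfotransferase, read 7.58 there and 1.67 to 3.50 in the other 17, with a slope of -2.42 ± 0.34 (limma adjusted p = 0.00249) and -1.07 over 15 libraries. Unlike for Slco1a1, the WT oil libraries already spread from 1.79 to 8.06 for Sult3a2. Cyp2c69, Sult3a1, Cyp3a16, Ces3b, Cyp3a44 and Serpina4-ps1 had slopes of -2.91 to -1.95. Ces3b and Cyp2c69 owed their spread to the low-hepatocyte libraries as well. Ces3b read 2.64 in WT_CCl4 3 and 2.28 in KO_CCl4 5, with the next lowest at 5.27 in WT and 4.97 in KO. Cyp2c69 read 2.85 and 2.83 there, with the next lowest at 5.83 and 5.73. The WT oil libraries also spread widely for Sult3a1 (2.18 to 9.41), Cyp3a16 (2.69 to 7.95) and Cyp3a44 (3.37 to 7.76). They did so for Serpina4-ps1 (4.75 to 10.04) and Cyp2c69 (6.80 to 10.87) too, but not for Ces3b (8.77 to 10.11). Genes with a wide oil range thus varied between animals without CCl4 as well, and the source of that variation was not tested. WT_control 1 was the lowest WT oil library for A1bg (3.15), Sult3a1 and Cyp3a16 and the highest for Slco1a1 (9.73). The Cyp2c, Cyp3a and Sult3a genes have close relatives on the array, and probe sets of such families may read each other's RNA.

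Of 17 markers of hepatocytes around the central vein, where CCl4 is activated, 3 fell and none rose, with a median slope of -0.72 and none above 0, or -0.24 and 7 above 0 over 15 libraries. Slc1a2, a glutamate transporter of these cells, read 7.07 in WT_CCl4 1, within 6.97 to 7.65 in WT oil libraries, and 3.15 to 4.30 in the other 17 CCl4 libraries. Its slope of -1.42 ± 0.23 (limma adjusted p = 0.00644) became -0.37 over 15 libraries (unadjusted limma p = 0.15). Lhpp, a phosphatase, and Tbx3, a transcription factor of the zone, had slopes of -0.99 ± 0.19 and -0.71 ± 0.17 (limma adjusted p = 0.0136 and 0.0413). The 14 periportal markers had no call and a median slope of -1.02, which became 0.01 over 15 libraries. The 19 secreted liver proteins moved likewise, with no call and medians of -0.85 and 0.05. WT_CCl4 3 and KO_CCl4 5, left out of the latter, are the libraries with the lowest periportal mean.

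Metabolic lists showed few calls. Bile acid synthesis and transport had 2 falls among 17, Slco1a1 and Cyp27a1, the enzyme of the acidic pathway, at -1.04 ± 0.26 (limma adjusted p = 0.0479). Lipogenesis had 2 falls among 19, Mlxipl and Elovl6. Mlxipl, which encodes the carbohydrate sensor ChREBP, ran from 6.27 through 7.26 to 9.00 in WT and from 6.14 through 7.32 to 7.85 in KO. The highest value was that of WT_CCl4 1, and the lowest of each genotype those of WT_CCl4 3 and KO_CCl4 5. Its slope was -1.01 ± 0.20 (limma adjusted p = 0.0138) and -0.16 over 15 libraries, and its r in 8 WT animals was 0.01. Elovl6, a fatty acid elongase, had a slope of -0.85 ± 0.21 (limma adjusted p = 0.0494). Fatty acid oxidation had 1 fall among 20, the thioesterase Acot1, at -1.17 ± 0.23 (limma adjusted p = 0.0144) and -1.09 over 15 libraries. Cholesterol synthesis had 1 fall among 16, the sterol reductase Tm7sf2. No gene was called among 24 xenobiotic enzymes, 18 of the respiratory chain or 19 of the acute phase.

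Epithelial lists held few calls. Of 13 duct genes only Bicc1, an RNA-binding protein whose loss causes cysts, rose by 0.85 ± 0.15 per log2 of Col1a1 (limma adjusted p = 0.00815). It ran from 5.60 through 6.80 to 7.46 in WT and from 6.46 through 7.08 to 8.03 in KO, with an r of 0.87 in 8 KO and 0.25 in 8 WT animals. Of 18 genes that stressed epithelium switches on, the annexins Anxa3 and Anxa2 and S100a11 rose, with slopes of 1.03 ± 0.16, 1.00 ± 0.23 and 0.80 ± 0.19 (limma adjusted p = 0.00429, 0.0317 and 0.039). Ednrb, the endothelin B receptor, was the single rise among 11 genes of vascular endothelium, and Phlda3, a p53 target, that among 18 NRF2 and p53 targets. The 13 genes of sinusoidal endothelium had no call by the shared slope and 1 rise by the KO slope, and the median shared slope was -0.44, or -0.06 over 15 libraries. Lists of skeletal muscle (11), pancreas (11), fat (8) and mesothelium (8) had no call either. Their median slopes were 1.47, 0.91, 1.29 and 0.79, with every measured member above 0. Over 15 libraries the medians were 1.39, 1.57, -0.50 and 0.09, and 1 of 8 fat genes and 5 of 8 mesothelial genes were above 0. Without the libraries that carry other tissues they were 0.03, 0.20, 0.03 and 0.09.

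Genes of the cell cycle depended on which libraries were used. With all 18 libraries none of 23 measured members was called, and the median slope was 0.28. Over the 15 libraries the median slope was 0.93, with 22 of 23 above 0, and 18 of 23 had an unadjusted limma p under 0.05 in that direction, against 4.91% of all genes. None passed the adjusted test there. Over the 11 libraries left without WT_CCl4 1 and the 6 that carry other tissues the count was again 18, against 4% of all genes. With WT_CCl4 1 and KO_CCl4 5 alone left out, 3 of 23 in 8 WT animals and 4 of 23 in 8 KO animals had a positive r at an unadjusted exact permutation p under 0.05, against 1.66% and 4.44% of all genes. The median r of the list in WT was 0.49 both with and without WT_CCl4 1. The 15- and 11-library settings were both chosen after seeing the data, and they share most of their animals. With only the libraries that carry other tissues left out, 3 members were called. Top2a, a topoisomerase of dividing cells, ran from 3.76 through 4.70 to 5.03 in WT and from 3.97 through 5.10 to 5.80 in KO. KO_CCl4 3 and 7 were the highest, both with high Col1a1, and WT_CCl4 7, 9 and 1, KO_CCl4 8 and WT_CCl4 5 the lowest. KO_CCl4 5 read 5.10, in the middle of its group although its Col1a1 was the highest. The slope of Top2a was 0.68 ± 0.24 with all libraries (limma adjusted p = 0.123) and 1.60 ± 0.37 over 15 (unadjusted limma p = 4.7e-04, adjusted 0.23). Mki67, which encodes the proliferation antigen Ki-67, ran from 4.58 through 5.54 to 6.27 in WT and from 4.76 through 5.94 to 6.88 in KO. Its slope was 0.79 ± 0.27 with all libraries (limma adjusted p = 0.116) and 1.63 ± 0.45 over 15 (adjusted 0.337). The r of Top2a was 0.81 in 8 WT and 0.71 in 8 KO animals (exact permutation p = 0.0182 and 0.0545, adjusted 0.895 and 0.614), and that of Mki67 0.74 and 0.63. Which cells of the liver carried these transcripts was not measured.

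**Figure D5:**
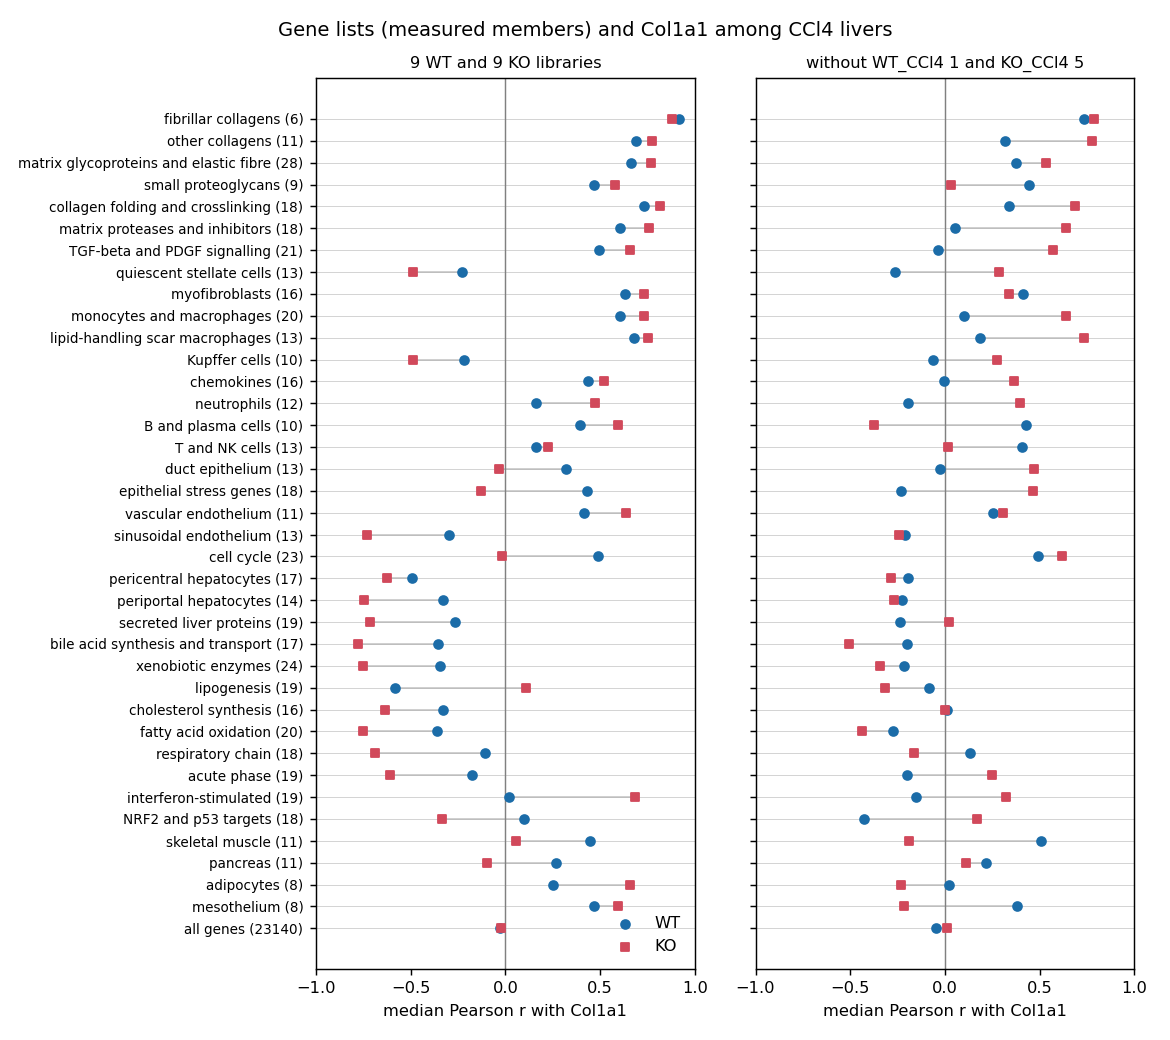
Median Pearson r with Col1a1 (x axes) of the members of each gene list (y axis, number measured in brackets) within 9 WT and 9 KO libraries (left) and without WT_CCl4 1 and KO_CCl4 5 (right). Fibrillar collagens stay at 0.74 and 0.79 on the right, cell cycle genes move from 0.49 in WT and -0.02 in KO to 0.49 and 0.62, and periportal hepatocyte genes from -0.33 and -0.75 to -0.23 and -0.27.

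The order of the lists between the ends can be read from medians of r without WT_CCl4 1 and KO_CCl4 5, over 8 animals of each genotype. Over all genes these medians were -0.05 in WT and 0.01 in KO. Fibrillar collagens kept 0.74 in WT and 0.79 in KO. In KO, other collagens (0.78), scar macrophages (0.73), folding and crosslinking (0.69), proteases (0.64), monocytes and macrophages (0.64) and cell cycle (0.62) stayed above 0.6. In WT the same lists had medians of 0.32, 0.19, 0.34, 0.05, 0.10 and 0.49. The 2 sets of 8 are not alike. The WT set keeps WT_CCl4 3, 4, 5, 8 and 9, which carry other tissues, and WT_CCl4 3 is low in periportal transcripts too. The KO set keeps no such library. A difference of genotype cannot be told apart from this difference in tissue. No test of the difference between genotypes was called for any gene, so these medians are values side by side. Over these 8 animals 1027 genes in KO (4.44%) and 383 in WT (1.66%) had a positive r at an unadjusted exact permutation p under 0.05, and none passed adjustment.

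The genes most opposed to Col1a1 in both genotypes formed no list fixed for the study. In order they were Vmn2r20, Tapt1, Nim1k, Rfx4, Rab30, Olfr531, Dennd4a, A4gnt, Smpd2 and Wrnip1, all but Dennd4a called. Vmn2r20 and Olfr531, receptors of the nose in mice, had mean levels of 2.92 and 2.43, in the low range of the array where a signal may be background. The same limit holds for A4gnt, with means of 2.93 in WT and 2.85 in KO. Tapt1, a membrane protein, had a mean of 7.62 and a slope of -0.50 ± 0.09 (limma adjusted p = 0.00767), with r of -0.74 in 8 WT and -0.75 in 8 KO animals. Rab30, a small GTPase of the Golgi, had a slope of -0.66 ± 0.11 (limma adjusted p = 0.00743). Slopes of the group ran from -0.78 to -0.30, far smaller than those of the hepatocyte enzymes.

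Dpt was called with a shared slope of 2.07 ± 0.46 (limma adjusted p = 0.0285), and the KO animals lay close together between 3.00 and 3.86. By genotype, Dpt had a slope of 3.05 ± 0.36 in WT (limma adjusted p = 0.000603) and -0.23 ± 0.55 in KO (limma adjusted p = 0.86). The KO mice lack Dpt, so its shared slope does not describe them. Its r was 0.91 in 9 WT animals (exact permutation p = 0.00796, adjusted 0.635) and 0.52 without WT_CCl4 1, whose 3.18 is against its label. Without that library the slope was not called (limma adjusted p = 0.682). The WT animals ran from 3.18 through 8.31 to 10.12, with the highest value in WT_CCl4 3, which carries muscle and fat markers.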

How the data were processed

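The values are log2 signals per probe set that the authors obtained by RMA, which corrects the background, quantile-normalizes arrays and summarises probes, per the submitters' processing notes, which name RMA alone. Which software version and genome build lie behind them is not given in the sources used here. Of 269479 deposited probe sets, the 233753 that carry a single symbol were kept (5139 carried several and 30587 carried none). Symbols were updated for 2208 genes through a RefSeq gene table on GRCm38.p6. Averaging the probe sets of each symbol (median 8 per gene) left 23141 genes, and no filter on low values was applied. Another deposited table with 36 columns that match no sample was not used here. Arrays have no read depth.

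Groups came from the sample titles, and no library was moved. No pair of arrays held identical values (0 pairs, highest correlation of 2 arrays 0.9888). Slopes on Col1a1 were fitted with empirical Bayes variances (limma 3.58.1, R 4.3.3): a shared slope with a mean per genotype, then a slope per genotype and their difference. Tests are two-sided, p-values are Benjamini-Hochberg adjusted over 23140 genes, and errors of a slope are standard errors. Pearson and Spearman correlations within a genotype used all 362880 orders of 9 animals (40320 of 8) with scipy 1.17.1 and numpy 2.4.6 (Python 3.11.15, tables by pandas 2.3.3). The fits and permutation tests were tested on simulated data. WT and KO libraries share replicate numbers. Deviations of same-numbered libraries from their group means correlated at -0.28 to 0.32, over 0.1 in 4 of 9 pairs, so the numbers were not taken to pair animals.

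The genes named are Col1a1 and Dpt, the 10 most like and 10 most opposed to Col1a1, the 10 largest rises and falls whose r has 1 sign in both genotypes, and up to 4 called members of each of 37 lists, or 2 with the smallest adjusted p where none was called. Provisional symbols, small RNA genes and receptor or antibody segments were left out of the ranked parts. Members, lists and tests were chosen with earlier results of these data known. Some list members have no probe set with a single symbol and are not analysed here. Alternatives covered the scaling, the summary of a gene, a filter on low values, the measure of scarring, libraries left out, and the replicate block.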

Additional observations from a re-analysis of the deposited data

Results flagged for a closer look

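Libraries were looked at for values far from the other 8 of their group, in 39 genes or marker means of each genotype. A value counts where its gap to the nearest other is more than 0.493 of the group's range. Of 78 groups 33 held such a value, while chance gives about 1 in 20 for unrelated values. The items here were chosen for following Col1a1 or as markers of tissues seen to stand apart, and they move together, so that rate is no reference for the count. WT_CCl4 1 and KO_CCl4 5 each held 14 of them, and no explanation was tested.

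WT_CCl4 1 was low for Col1a1 (7.18, others from 8.28), Col1a2 (6.38, others from 7.53), Fstl1 (5.45), Ccdc80 (5.44), Lum (4.93), Cygb (6.37), Cd63 (6.40), Lpl (5.74) and Dpt (3.18, others from 7.48). The same library was high for A1bg (10.15, others to 6.58), Slco1a1 (7.90, others to 3.47), Sult3a2 (7.58), Slc1a2 (7.07) and Mlxipl (9.00).

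KO_CCl4 5 was high for Col1a2 (9.14), Col3a1 (10.31, others to 8.98), Ccdc80 (8.36), Mmp2 (9.77, others to 7.80), Fbn1 (8.15), Postn (8.92), Lum (8.35), Vim (10.22), Gpnmb (10.74, others to 8.78), Lpl (9.95) and Il7r (7.07, others to 4.82). It was high for the means of fat (8.97) and mesothelium markers (7.09) and low for that of periportal markers (5.81). WT_CCl4 3 was high for mesothelium (6.73) and low for periportal markers (5.91), and WT_CCl4 4 was high for pancreas (11.54). In KO, Slco1a1 was high in KO_CCl4 9 (3.58, others to 2.91) and Slc1a2 in KO_CCl4 1 (4.30, others to 3.71).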

How the results depend on the processing

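The 421 genes called by the shared slope became 273 with arrays centred (119 up, 154 down) and 224 with the median of probe sets (160 up, 64 down). They became 4295 with the mean of Col1a2 and Col3a1 as the measure, and none with the rank of Col1a1 (limma, 4566 at an unadjusted p under 0.05). Leaving out the other-tissue libraries gave 121, their scores as covariates 77, and leaving out WT_CCl4 1 gave 38. The 15-library setting gave 6. Leaving out the 2 libraries of each genotype farthest from the median gave none (2093 at an unadjusted p under 0.05), and the 11-library setting none. A filter on low values gave 598. Leaving out the 2 low-hepatocyte libraries gave 325. The replicate block gave 0 calls (1441 at an unadjusted p under 0.05). It spends degrees of freedom on the replicate numbers, which were not taken to pair animals. Of 9 WT libraries 1 correlated best with the KO library of its number. Whether animals of the same number shared a batch is not given by the labels and was not tested. Leaving out each library in turn gave 38 to 736.

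The 34 WT calls became 20 with the filter, 536 with the other measure, 65 without other-tissue libraries, 59 with covariates and 146 without low-hepatocyte libraries. They were 0 by rank (1915 unadjusted), without WT_CCl4 1 (1837), without the 2 farthest (1792), with 15 libraries and by the exact permutation test (1472), and 1 with 11 libraries. Each library left out gave 0 to 76. The 284 KO calls became 136 centred, 150 with the median of probe sets, 940 with the filter, 3529 with the other measure and 5 by the exact permutation test. They were 0 by rank (3447 unadjusted), without other-tissue libraries (1763), with covariates (1632), without low-hepatocyte libraries (1767), without the 2 farthest (1334) and with 15 or 11 libraries. Each library left out gave 0 to 3238, the highest without WT_CCl4 3. The slope difference, with no call otherwise, gave 2 with the median of probe sets, 86 with the other measure, 2 without other-tissue libraries and 0 to 23 with each library left out. The cause was not tested.

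Among named genes some slopes changed sign. With 11 libraries they were -0.045 for Dpt, -0.0023 for Tgfb2, -0.032 for Cd22, -0.061 for S100a11, 0.074 for Lhpp, 0.13 for Asl, 0.054 for F2, 0.090 for Proc, 0.16 for Tm7sf2, 0.15 for Sdhc, -0.17 for Saa3, -0.018 for Acta1 and -0.080 for Retn. With 15 libraries they were -0.10 for Ccl3, 0.030 for F2, 0.051 for Proc, 0.073 for Elovl6, -0.27 for Saa3 and -0.14 for Retn. Without the 2 farthest they were -0.51 for Saa3 and -0.080 for Retn, with covariates -0.23 for Retn, and with the replicate block -0.12 for Cxcr2. The 15- and 11-library settings and the correlations over 8 animals were chosen after seeing the data. The smallest p that the exact test can give is 2.8e-06 for 9 animals and 2.5e-05 for 8.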

Other observations

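Some lists had medians of r that lay on different sides of 0 or far apart in the genotypes. Interferon-stimulated genes, 19 measured, had a median r of 0.02 in 9 WT and 0.69 in 9 KO animals. By the limma slope 2 of them rose in KO, where 0.942% of all genes rose. Without WT_CCl4 1 and KO_CCl4 5 these medians were -0.15 and 0.32. Oas2 and Oasl2, which sense double-stranded RNA, had r of 0.22 and 0.36 in 9 WT and of 0.88 and 0.86 in 9 KO animals. KO_CCl4 5 was the highest KO library for both, at 7.57 and 8.07, with the next at 6.25 and 6.88. Lipogenic genes, 19 measured, had medians of -0.58 in WT and 0.11 in KO, which became -0.08 and -0.32 without the end libraries. NRF2 and p53 targets, 18 measured, had medians of 0.10 and -0.34, which became -0.43 and 0.17. No difference of slope between genotypes was called. The smallest adjusted p of that difference, 0.132, was that of Alas2, the heme synthesis enzyme of red cells, Ifi202b, an interferon-induced gene, and Sash1, named after their values were seen.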
